A study of Mus musculus with 22 samples.

Results

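The comparison described here is that of liver gene expression between 3 female mice that lacked both Nat1 and Nat2, 2 genes for arylamine N-acetyltransferases (KO), and 3 female wild-type (WT) littermates, all on a high-fat, high-sucrose (HFHS) diet. The 6 arrays were taken by sex, genotype and diet from the sample labels, out of 22 arrays in all, and each was a separate animal of the C57BL/6 strain. All 6 were processed in the same labelled batch, Batch1. The diet supplied 45% of its energy as fat, 35% as carbohydrate and 20% as protein and was given for 12 weeks to mice described as 12 weeks old, although the treatment protocol can be read as placing 12 weeks of regular chow ahead of it. The sources used here do not say how the alleles were made. The remaining arrays came from 3 KO and 3 WT males on HFHS and 4 KO and 4 WT males on chow. For 2 of the HFHS males there was also a repeat array. Chow supplied a smaller share of energy as fat and larger shares as carbohydrate and protein. All arrays of chow males and the repeat arrays were in another labelled batch, whereas the other arrays of HFHS males were in Batch1. Diet and batch therefore cannot be told apart when the HFHS males are set beside the chow males. These males are described to show where the females differed, but they were also used to choose the tested genes. They share the estimate of spread behind the standard errors and p-values of the females.

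Arylamine N-acetyltransferases (NATs) are cytosolic enzymes that move an acetyl group from acetyl-CoA onto the nitrogen of arylamine and hydrazine compounds. They are best known for the inherited slow and fast acetylation of drugs in humans and for their handling of arylamine carcinogens. Mice carry 3 genes of the family, Nat1, Nat2 and Nat3, next to each other on chromosome 8, and mouse Nat2 is the closest in activity to human NAT1. The series title places the loss of both enzymes beside energy metabolism and the capacity to oxidise fatty acids, the route by which the liver burns dietary fat it does not store.

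Values are log2 expression levels, so a difference of 1 is a 2-fold change. The 6 array medians lay between 4.47 and 4.56, and correlations between arrays over all genes were 0.965 to 0.985. All 10 hepatocyte markers, such as Alb and Apoa1, were above the median of all values in the table (4.57) in each of the 6 arrays, and their mean level was 12.3 to 12.5 in WT and 12.5 to 12.6 in KO. By contrast, 9 of 10 neutrophil markers and 5 of 7 cholangiocyte markers were at or below that median in all 6. On the first principal component (35.6% of the variance) WT 2 lay at 37.3 and the other 5 animals between −11.3 and −3.73. A gene was tested if it exceeded the table median in at least 3 of the 22 arrays, which 13871 genes did, and was called at a limma p-value below 0.05 after Benjamini-Hochberg adjustment over all of them.

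The targeted genes were low in every KO female. Nat2 was at 7.31, 6.87 and 6.84 in the 3 WT females and at 3.92, 4.11 and 3.92 in the 3 KO females. The groups were far apart, and all KO values lay under the table median. Nat2 fell 8.12-fold (log2 difference −3.02 ± 0.16 SE, limma adjusted p = 1.54e-09), a fold measured against a low signal. Nat1 was at 3.75, 3.52 and 3.54 in WT and at 2.12, 2.32 and 2.24 in KO, a log2 difference of −1.38. Nat3, which was not targeted, lay the other way, at 3.16, 3.80 and 3.04 in WT and 4.36, 4.20 and 3.94 in KO (difference 0.83). Neither Nat1 nor Nat3 reached the table median in any female, so both were outside the genes tested. By an exact two-sided permutation test over animals, Nat1, Nat2 and Nat3 each reached p = 0.1, and 20 arrangements of 3 against 3 can go no lower. The sources used here do not say which part of each transcript the probes cover.

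Across the genome 7 of 13871 genes were called (0.0505%), with 4 higher in KO (0.0288%) and 3 lower (0.0216%). Beside Nat2 these were Sult1e1, Bst2, Zfp963, Zfp868, Mvb12a and the long non-coding RNA C730027H18Rik. Most of the genome lay close to 0: the median difference was 0.00024, the median absolute difference was 0.11, and 90 in 100 genes lay between −0.30 and 0.35. At an unadjusted p below 0.05 there were 658 genes (4.74%), of which 357 were higher (2.57%) and 301 lower (2.17%). The KO and WT values did not overlap for 1214 genes (8.75%), with KO above WT for 602 (4.34%) and below for 612 (4.41%).

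**Figure D1:**
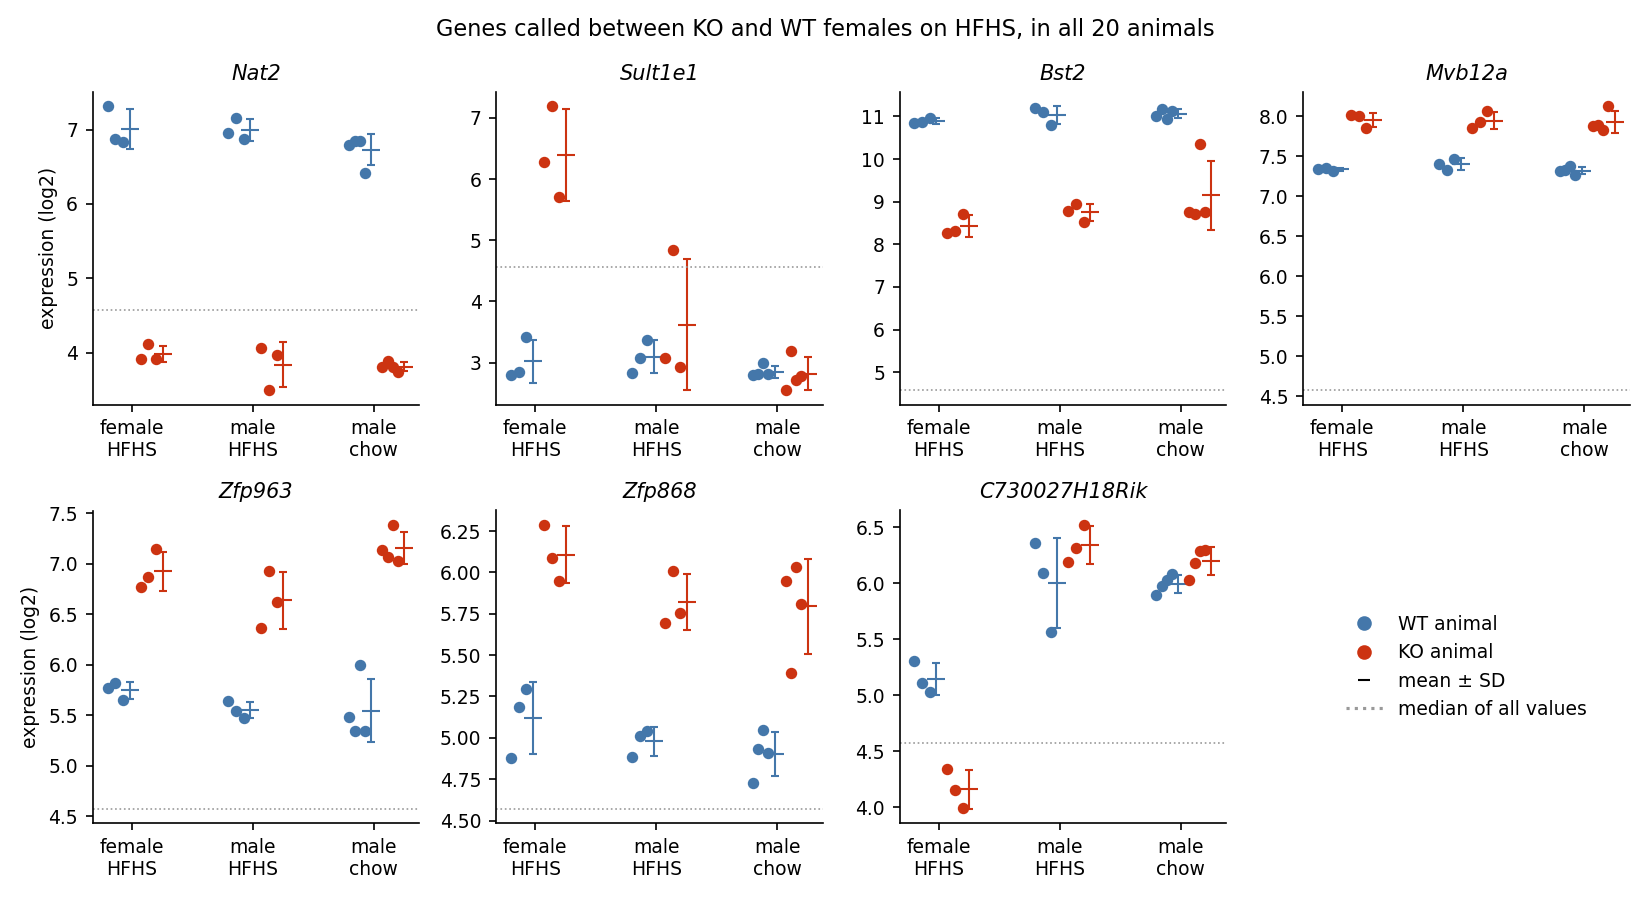
Log2 expression of the 7 genes called between KO and WT females on HFHS, with each of the 20 animals as a point (WT blue, KO red), the mean and SD of each group beside it, and the table median as a dotted line; the vertical axes do not start at 0. KO and WT females are separate in every panel, whereas Sult1e1 and C730027H18Rik overlap between genotypes in both groups of males.

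The 5 called genes of chromosome 8, Nat2 included, differed in the same direction in females and in both groups of males. Bst2 encodes tetherin, an interferon-induced membrane protein that holds budding viruses on the cell surface. It was at 10.84, 10.88 and 10.96 in WT females and at 8.26, 8.31 and 8.71 in KO females, with a wide gap between the groups. Bst2 fell 5.52-fold (log2 difference −2.46 ± 0.30 SE, limma adjusted p = 0.000432), with −2.29 in HFHS males and −1.92 in chow males. Mvb12a, next to Bst2 in the order of tested genes, encodes a subunit of the ESCRT-I complex that sorts membrane proteins into multivesicular bodies. It was at 7.34, 7.35 and 7.32 in WT and 8.01, 8.0 and 7.85 in KO, a tight set of values in each genotype. Mvb12a rose 1.54-fold (0.62 ± 0.10 SE, limma adjusted p = 0.0221; 0.54 in HFHS males and 0.61 in chow males), but the adjusted p was between 0.0513 and 0.163 when any 1 of the 6 females was left out.

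The zinc finger genes Zfp868 and Zfp963 lay close together, 11 and 13 tested genes beyond Nat2. Zfp963 was at 5.76, 5.82 and 5.65 in WT and 6.77, 6.87 and 7.14 in KO, and rose 2.27-fold (1.18 ± 0.17 SE, limma adjusted p = 0.00508). Zfp868 was at 4.88, 5.19 and 5.30 in WT and 6.29, 6.08 and 5.95 in KO, and rose 1.98-fold (0.99 ± 0.16 SE, limma adjusted p = 0.0171). Neither gene overlapped between genotypes in females or in either group of males. Zfp869, which lies between them, had a difference of −0.43 (limma adjusted p = 0.822), so neighbouring genes of this cluster lay in opposite directions. Leaving out KO 3 took Zfp963 to an adjusted p of 0.0513, and Zfp868 passed without KO 3 or without WT 3 but not without any of the other 4 animals.

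The 250 bases before the start of transcription are shown for 3 of the called genes on chromosome 8 and for Sult1e1, because adjacent genes (Bst2 and Mvb12a) changed in opposite directions and Sult1e1 was the called gene from another chromosome that was higher in KO. They are from RefSeq, build GRCm38.p6, in which 5 of the 7 called genes were matched by symbol, each written 5′ to 3′ on the strand of the gene, which is minus for Bst2 (chr8:71537473-71537722), Zfp963 (chr8:69749963-69750212) and Sult1e1 (chr5:87591612-87591861) and plus for Mvb12a (chr8:71542680-71542929). Capitals mark matches to the interferon-stimulated response element core (GAAA, then 2 bases of any kind, then GAAA), the CCAAT box, the GC box GGGCGG and the nuclear receptor half-site AGGTCA, searched on both strands together with the TATA box TATAAA.
Bst2: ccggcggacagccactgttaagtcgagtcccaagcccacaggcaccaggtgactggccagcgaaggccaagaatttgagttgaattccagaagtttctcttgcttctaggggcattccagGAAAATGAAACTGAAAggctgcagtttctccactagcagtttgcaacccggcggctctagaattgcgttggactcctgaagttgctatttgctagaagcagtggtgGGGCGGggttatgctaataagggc
Mvb12a: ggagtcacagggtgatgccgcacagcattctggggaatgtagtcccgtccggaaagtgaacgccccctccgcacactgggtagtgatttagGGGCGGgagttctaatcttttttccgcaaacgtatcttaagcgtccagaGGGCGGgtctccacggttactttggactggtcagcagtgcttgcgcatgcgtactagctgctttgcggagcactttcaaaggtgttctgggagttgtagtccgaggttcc
Zfp963: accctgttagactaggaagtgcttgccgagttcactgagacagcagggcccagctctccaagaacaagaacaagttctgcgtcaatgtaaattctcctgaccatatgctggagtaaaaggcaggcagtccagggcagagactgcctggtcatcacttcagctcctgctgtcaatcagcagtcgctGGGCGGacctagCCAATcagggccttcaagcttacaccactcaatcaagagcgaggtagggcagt
Sult1e1: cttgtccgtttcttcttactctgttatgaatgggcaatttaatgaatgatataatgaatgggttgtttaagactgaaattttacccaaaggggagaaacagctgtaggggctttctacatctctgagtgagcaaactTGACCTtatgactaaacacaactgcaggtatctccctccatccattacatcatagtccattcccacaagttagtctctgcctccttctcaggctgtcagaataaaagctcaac
The Bst2 window held 2 overlapping matches to the response element core, from 130 to 121 and from 124 to 115 bases before the start, and 1 GC box. Of 32851 RefSeq promoters, 2.98% held that core in this window, against 33.8% for CCAAT and 32.7% for GGGCGG. The Mvb12a window, which lies on the other strand, held 2 GC boxes and no match to the core. Zfp963 had 1 CCAAT box and 1 GC box, and Sult1e1 had 1 AGGTCA on the opposite strand, printed as TGACCT, 113 to 108 bases before its start, a motif that 14% of promoters held. A match here describes letters in the reference and says nothing of binding in these livers.

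Sult1e1 was higher in all 3 KO females than in any WT female. It encodes estrogen sulfotransferase, which attaches sulfate to estrogens and so inactivates them. Its level was 2.80, 2.84 and 3.42 in WT females, all under the table median, and 6.27, 7.19 and 5.70 in KO females, all above it. Sult1e1 rose (log2 difference 3.37 ± 0.39 SE, limma adjusted p = 0.000325); with all WT values at low signal, the size of the change is uncertain and no fold is given. It entered the test mainly through the 3 KO females, in which it was high, and was not tested under the filter of 10 arrays. It passed when any 1 of the 6 females was left out (adjusted p 0.000244 to 0.00439). In males on HFHS the KO values were 3.08, 4.85 and 2.93 against 2.83, 3.08 and 3.37 in WT, so that only KO 2 was above the table median and the groups overlapped (difference 0.53). In males on chow the difference was −0.04.

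Other cytosolic sulfotransferases, which conjugate steroids, bile acids, thyroid hormone and phenols, were described as a list with the 2 synthases of the sulfate donor. Of 21 genes measured 16 were tested, and 13 had positive and 3 negative differences, with a median of 0.29 against 0.00024 over all genes tested, 50.1% of which were positive. Sult1e1 was the only member called (0.0505% of all genes were), while 4 others were higher and 1 lower at an unadjusted p below 0.05, against 2.57% and 2.17% of all genes. Sult2a1, a bile acid and hydroxysteroid sulfotransferase, was at 6.96, 8.43 and 9.86 in WT and 9.84, 9.96 and 10.1 in KO. The KO animals were alike, the WT animals were spread over nearly 3 log2 units, and WT 3 lay within the KO range (difference 1.53 ± 0.55 SE, limma adjusted p = 0.999). Sult2a3, Sult2a4 and Sult2a5 had differences of 1.12, 0.82 and 1.12. These and Sult2a1 were the 4 others that were higher at an unadjusted p below 0.05. All 4 are Sult2a genes in which WT 1 had the lowest value, so they may not count as independent members. Sult3a1 lay the other way, at 8.17, 6.10 and 5.60 in WT and 5.44, 4.14 and 6.06 in KO, with overlap (−1.41, limma adjusted p = 0.970). The median of the list was 0.18 to 0.40 when each female was left out in turn, and −0.09 and −0.03 in males on HFHS and on chow.

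**Figure D2:**
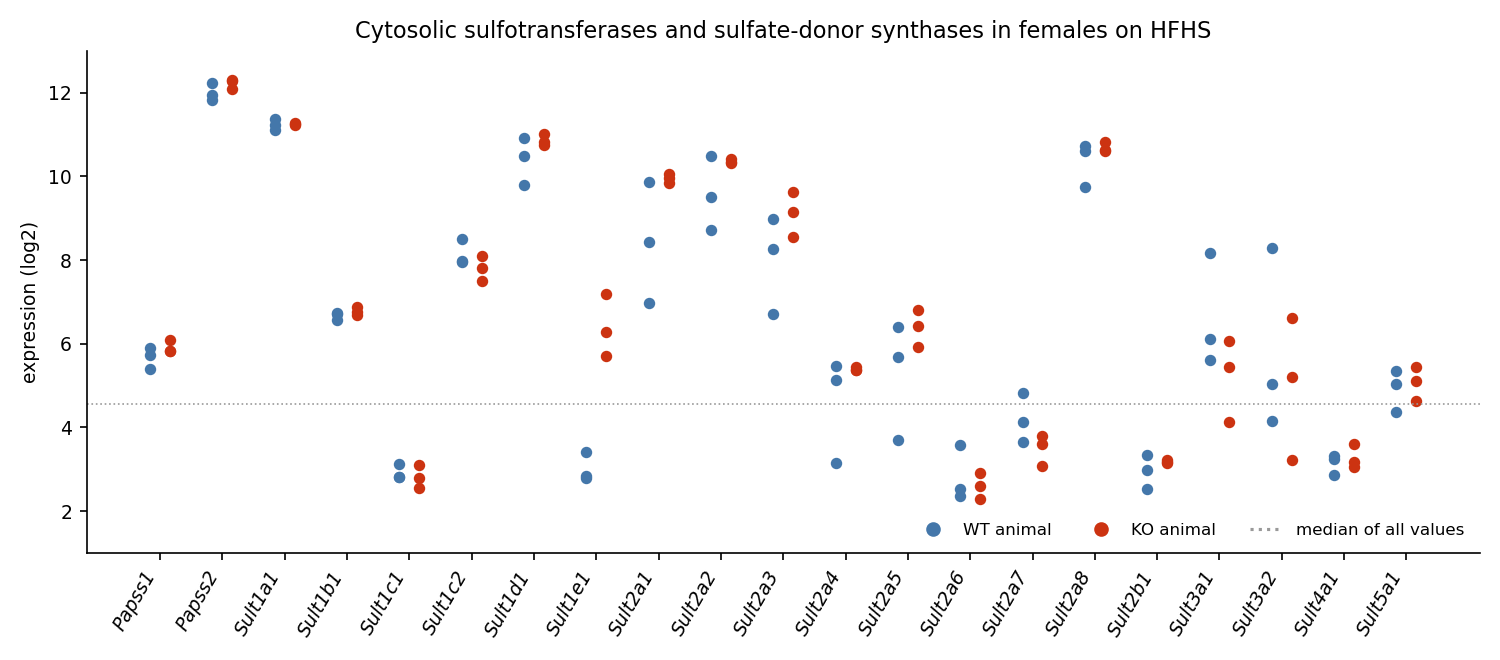
Log2 expression of the 21 measured genes of the sulfotransferase list in the 3 WT (blue) and 3 KO (red) females on HFHS, 1 point per animal, with the table median as a dotted line. Sult1e1 is the only gene that is below the dotted line in all WT and above it in all KO animals, and several Sult2a genes have WT 1 far below the other animals.

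C730027H18Rik, a long non-coding RNA gene on chromosome 10, was at 5.31, 5.11 and 5.03 in WT females and 4.34, 4.15 and 3.99 in KO females. The KO values were all lower and under the table median. It fell 1.99-fold (−0.99 ± 0.16 SE, limma adjusted p = 0.0173), against differences of 0.34 and 0.20 in males on HFHS and on chow. Its adjusted p was 0.0344 to 0.150 when each female was left out in turn, and it passed without KO 1 and without WT 3 only.

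Differences between KO and WT females were more frequent on chromosome 8, which carries the targeted genes, than on the other chromosomes. Of its 761 tested genes 30 were at an unadjusted p below 0.01 (3.94%), 18 higher and 12 lower in KO, against 108 of the other 13110 genes (0.824%) and 0.995% of all genes. On this chromosome the groups did not overlap for 110 genes (14.5%), against 8.42% of the others. Differences of both signs were interspersed, and among the other chromosomes, leaving aside Y with 6 tested genes, the highest share was 1.44% on chromosome 15. The chromosome was compared after earlier results had been seen, and neighbouring genes are not independent, so these shares are given without a test.

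Along the chromosome the 30 genes lay mostly near Nat2, which is the 243rd of the 761 tested genes in reference order. The first 50 tested genes after Nat2 held 7 of them and the next 50 held another 7. The 50 just before Nat2 held 2, the 50 before those held 3, and none of the 142 farther out on that side was among them. Of the 10 tested genes on each side only Naf1 (0.71), an assembly factor of H/ACA ribonucleoproteins, and Slc18a1 (−0.93), a vesicular monoamine transporter, were at an unadjusted p below 0.01, and neither was called. Lpl, the lipoprotein lipase gene 5 places from Nat2, had a difference of −0.12. The first and the next 50 tested genes after Nat2 included Slc18a1, the zinc finger genes, Lsm4, Use1, Ocel1, Bst2 and Mvb12a.

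**Figure D3:**
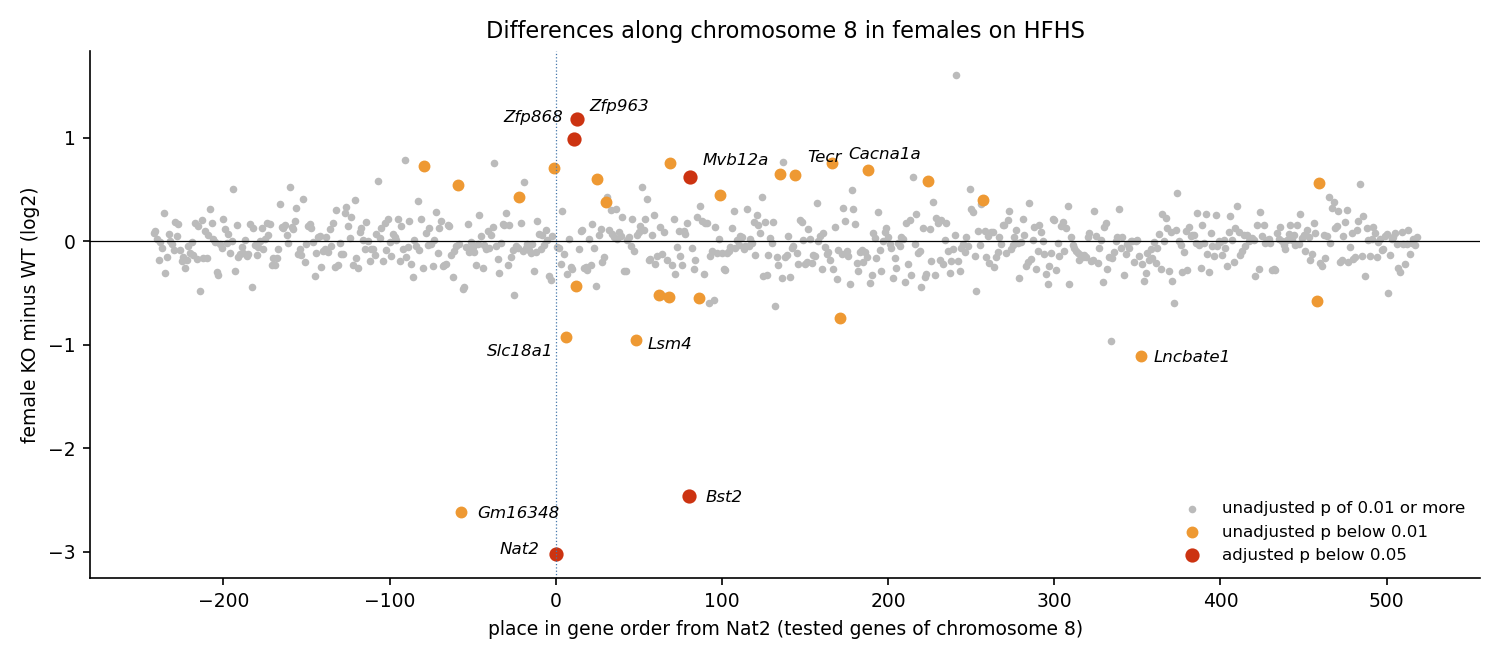
KO minus WT log2 difference in females on HFHS for the 761 tested genes of chromosome 8, placed by their order from Nat2 at 0; red points were called at an adjusted p below 0.05, orange points had an unadjusted p below 0.01. The 14 coloured points among the first 100 genes to the right of Nat2 compare with 5 among the 100 to its left.

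Some uncalled genes of this chromosome, picked after their values were seen, had groups that were separate in all 3 comparisons. Tm6sf2, which is needed to load very-low-density lipoproteins with lipid, was at 8.95, 8.94 and 9.25 in WT and 9.70, 9.66 and 9.59 in KO. The groups did not overlap in females or in males (difference 0.60 in females, 0.41 in HFHS males and 0.55 in chow males; limma adjusted p = 0.712 in females). Tecr, the last enzyme of very-long-chain fatty acid elongation, was at 10.5, 10.2 and 10.4 in WT and 11.1, 11.2 and 10.8 in KO (0.64, limma adjusted p = 0.671), and its groups were also separate in all 3 comparisons (0.60 and 0.76 in males). The calcium channel gene Cacna1a (0.75, limma adjusted p = 0.0888) and Use1, a SNARE protein of retrograde transport (−0.54, 0.138), were nearest to the threshold. The groups of Use1 were separate in all 3 comparisons (−0.37 in HFHS males and −0.34 in chow males). Those of Cacna1a overlapped in HFHS males (0.12) but not in chow males (0.43). The largest difference among the uncalled genes of the chromosome was that of the non-coding RNA Gm16348, at 6.06, 6.10 and 6.37 in WT and 3.64, 3.69 and 3.36 in KO. Its groups were far apart in females, but male KO 2 on HFHS was at 6.65 among WT values, and the spread of the males enters the shared error (−2.61 ± 0.59 SE, limma adjusted p = 0.261). Gm16348 passed under 1 of 12 alternatives, the fit on the 6 female arrays alone (limma adjusted p = 0.000346). It passed under none that left out 1 female (0.276 to 0.758).

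Set beside the males, which share no animal with the females, the 2 classes of genes differed in how far the sign of the difference recurred. Of the 30 chromosome 8 genes, 28 had the same sign in HFHS males (93.3%), 29 in chow males (96.7%) and 27 in both, the exceptions being Irx5, Aprt and Galns. Of the 108 genes elsewhere, 53 (49.1%), 61 (56.5%) and 32 did so. Over all 13871 genes the sign was the same in 49.4% and 51.1%. No share of all genes is given for the same sign in both groups of males. With the same sign and an unadjusted p below 0.05 in HFHS males there were 17 of the 30 and 2 of the 108. In chow males there were 21 and 7. Of all genes, 5.97% in HFHS males and 4.38% in chow males were at that p. These 2 shares count either direction, so they are wider than the counts of genes with the same sign. The p-values of females and males also rest on a shared estimate of spread. Genes chosen by a low p in females may therefore reach a low p in males more easily. The counts by p in males are thus not independent of the choice in females. After adjustment each male comparison called 5 genes (0.0360% in HFHS males and 0.0360% in chow males). When each female was left out in turn, the genes at p below 0.01 numbered 22 to 30 on chromosome 8, 19 to 26 of them with the same sign in both groups of males, and 79 to 241 elsewhere, 15 to 56 of them so, with the highest counts elsewhere obtained without WT 3 (241 and 56).

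**Figure D4:**
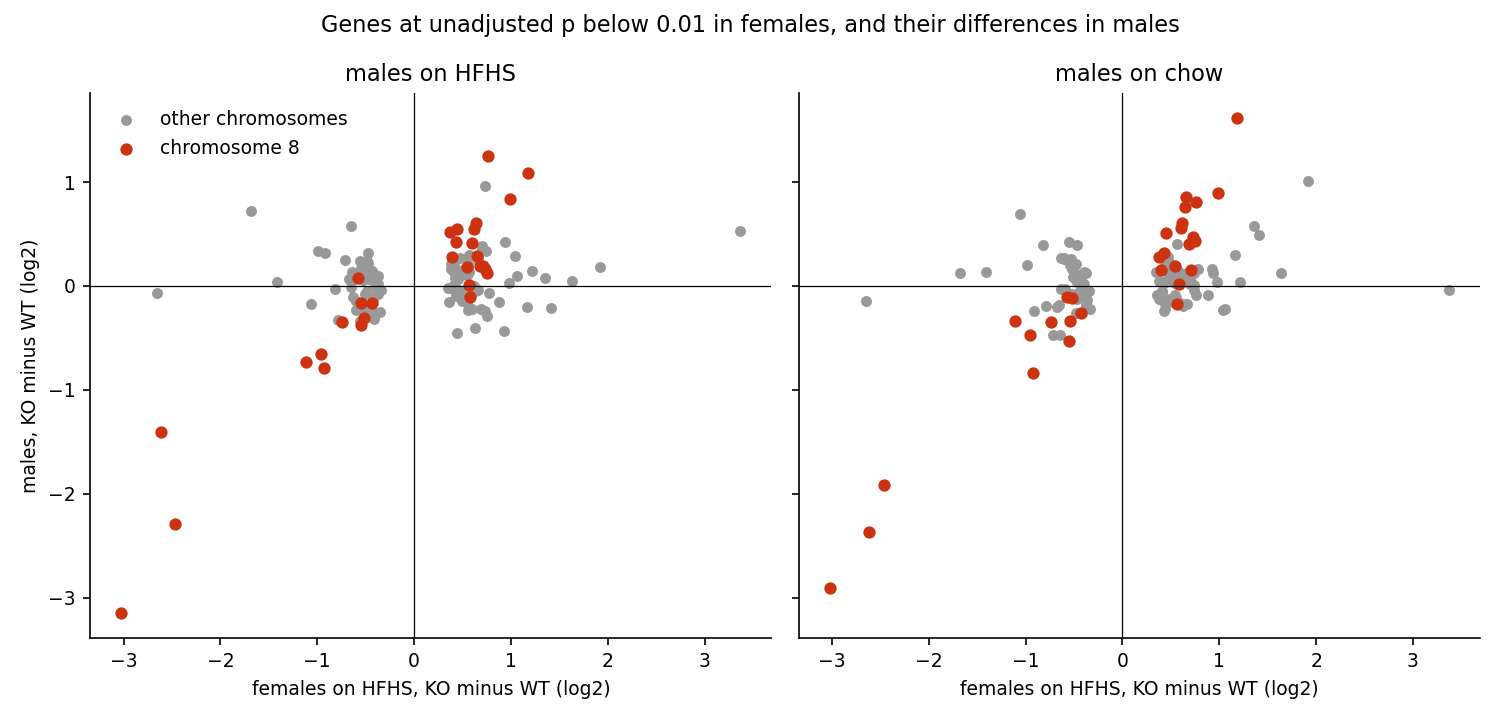
KO minus WT log2 difference in females on HFHS (horizontal) against that in males on HFHS (left) and males on chow (right), for the 138 genes at an unadjusted p below 0.01 in females; red points are the 30 genes of chromosome 8. The red points lie almost all at the lower left and upper right, and the grey points, Sult1e1 at the far right among them, are spread on both sides of 0 in males.

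The difference between females and males on HFHS was tested directly as an interaction in limma. No gene was called at an adjusted p below 0.05, and 717 genes (5.17%) had an unadjusted p below 0.05. C730027H18Rik had the smallest p, with a female minus male difference of −1.33 ± 0.23 (SE, limma adjusted p = 0.205), and it passed without male WT 1 (−1.50, limma adjusted p = 0.0270) and had an adjusted p of 0.0680 to 0.817 without each of the other 11 animals. Sult1e1 came next at 2.84 ± 0.55 (limma adjusted p = 0.354). The Sult1e1 interaction passed without male KO 2, the male with a high value (3.46, limma adjusted p = 0.00139), and it was at an adjusted p between 0.212 and 0.927 without each of the other 11 animals. Sult1e1 is thus called in females and not in males, but the difference between the sexes did not pass. For the chromosome 8 genes Nat2, Bst2, Zfp963, Zfp868 and Mvb12a the interaction was 0.13, −0.18, 0.10, 0.15 and 0.08, with limma adjusted p between 0.967 and 0.982.

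Among genes that did not pass, several of the largest differences with separate groups were at low or variable signals. A1bg, a plasma glycoprotein gene with female-biased expression in mouse liver, was at 6.96, 9.76 and 6.11 in WT females and 4.30, 6.05 and 4.51 in KO females. The lowest WT and the highest KO animal nearly met, and in males all values were under the table median (difference −2.65 ± 0.58 SE, limma adjusted p = 0.226; 0.0191 without WT 3 and 0.00540 with the replicate number as a block). Pgam1, a phosphoglycerate mutase of glycolysis, was at 2.74, 2.12 and 2.65 in WT and 4.79, 4.32 and 4.15 in KO. Only KO 1 exceeded the table median, and the difference of 1.92 missed the threshold (limma adjusted p = 0.0519). It passed under 4 of 10 alternatives, among them only the female arrays (limma adjusted p = 0.0297) and the replicate block (0.00939), and under none that left out 1 female (0.103 to 0.430). The replicate numbers did not pair the samples, so nothing is concluded from the block for Pgam1 or A1bg. The other genes higher in KO were Mup-ps12 (1.64), Snora34 (1.41), Gm4609 (1.22), Mir1983 (1.06), Mir375 (1.04), Trav6d-4 (0.98), Gapdh-ps15 (0.94), Slc22a29 (0.93) and Mir3961 (0.88), with limma adjusted p between 0.226 and 0.970. Those lower in KO, beside A1bg and Gm16348, were Eef1a1 (−1.68), Lncbate1 (−1.11), Gm8005 (−1.06), Lsm4 (−0.96), Slc18a1 (−0.93), Gm14636 (−0.92), Palm2 (−0.82) and Wrap73 (−0.79). Lsm4 and Slc18a1, both on chromosome 8, were also lower in KO males on HFHS (−0.66 and −0.79) and on chow (−0.47 and −0.84). Several of the genes listed here are pseudogenes, small RNAs or members of multigene families, whose probes may also read near-identical copies. Eef1a1, a translation factor gene, was under the table median in all 3 KO females. WT 2 was the lowest of the 6 females for Gm4609, Mir1983, Mir375, Trav6d-4, Gapdh-ps15 and Slc22a29, and it is also the animal that lay apart on the first principal component. Without WT 2 the differences were 0.58 for Gm4609, 1.00 for Mir1983, 0.68 for Mir375, 0.82 for Trav6d-4, 0.49 for Gapdh-ps15 and 0.67 for Slc22a29, so those of Gm4609, Mir375 and Gapdh-ps15 were smaller by more than 1.5 times. WT 2 was also the highest female for A1bg and Eef1a1, whose differences without it were −1.58 and −1.12.

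No gene of fatty acid oxidation was called between KO and WT females. None of the 20 tested genes of the mitochondrial pathway reached an unadjusted p below 0.05, and their median difference was 0.01 with 11 positive and 9 negative. Cpt1a, which commits fatty acids to mitochondrial import, was at 10.1, 10.3 and 10.2 in WT and 10.6, 10.3 and 10.3 in KO (0.16 ± 0.13 SE, limma adjusted p = 0.999). Acadvl, the very-long-chain acyl-CoA dehydrogenase, was at −0.23 ± 0.15 (SE) and the thioesterase Acot2 at 0.34 ± 0.25 (SE). The groups of Cpt1a and Acadvl overlapped. For 18 genes of peroxisomal and microsomal oxidation, which shorten very long chains, the median was 0.02 with 10 positive, and for 4 genes of ketone body synthesis it was −0.04. Respiratory chain and ATP synthase genes had a median of −0.03, with 26 of 39 negative and 3 lower at an unadjusted p below 0.05 (Uqcrh −0.25, Cox4i1 −0.28 and Cox8a −0.27), against 2.17% of all genes. None of them was called, and Cox4i1 also lies on chromosome 8.

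Genes of fatty acid synthesis were mostly higher in KO females, by small amounts that did not pass. Of 20 de novo lipogenesis genes 18 had positive differences, with a median of 0.26 against 0.00024 over all genes tested, 5 were higher at an unadjusted p below 0.05 against 2.57% of all genes, and 0 were called. The stearoyl-CoA desaturase Scd1 was at 12.2, 11.6 and 12.2 in WT and 12.4, 12.5 and 12.6 in KO, and the acetyl-CoA carboxylase Acacb at 6.71, 6.42 and 7.12 in WT and 7.14, 7.13 and 7.49 in KO. Neither gene overlapped between genotypes, although for Acacb the highest WT and the lowest KO animal nearly met. The elongase Elovl3 (0.63) and the pyruvate kinase Pklr (0.35) overlapped between groups. The median of the list was 0.18 to 0.40 when each female was left out in turn, with the highest value without WT 3, and it was 0.23 in HFHS males and −0.20 in chow males.

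Other lipid and glucose lists stayed near 0 or depended on single animals. Triglyceride synthesis and lipid droplet genes had a median of 0.12 with 15 of 20 positive, among them Mogat1 (0.66), Plin5 (0.34) and Agpat2 (0.21), while the lipolysis inhibitor G0s2 was at −0.39; the median was 0.04 without WT 1. Cholesterol synthesis genes had a median of −0.03 with 13 of 20 negative. WT 1 stood apart from the other females in that list. Its members lay 0.42 above the mean of the WT females at the median, against −0.22 to 0.10 in the others, and WT 1 is part of that mean. The list's median was −0.19 to 0.19 when each female was left out. In males on HFHS the same list was at 0.41 with 20 of 20 positive. Glycolysis and gluconeogenesis genes were at 0.01 (9 of 18 positive), lipoprotein and fatty acid uptake genes at 0.02, and insulin, glucagon and growth factor signalling genes at −0.02. In the uptake list Angptl8, a feeding-induced inhibitor of lipoprotein lipase, was at 8.11, 8.41 and 8.39 in WT and 7.59, 7.50 and 7.86 in KO. Every KO female was lower (−0.65, limma adjusted p = 0.970), whereas in males on HFHS every KO was higher (0.58), and the interaction did not pass (limma adjusted p = 0.933).

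**Figure D5:**
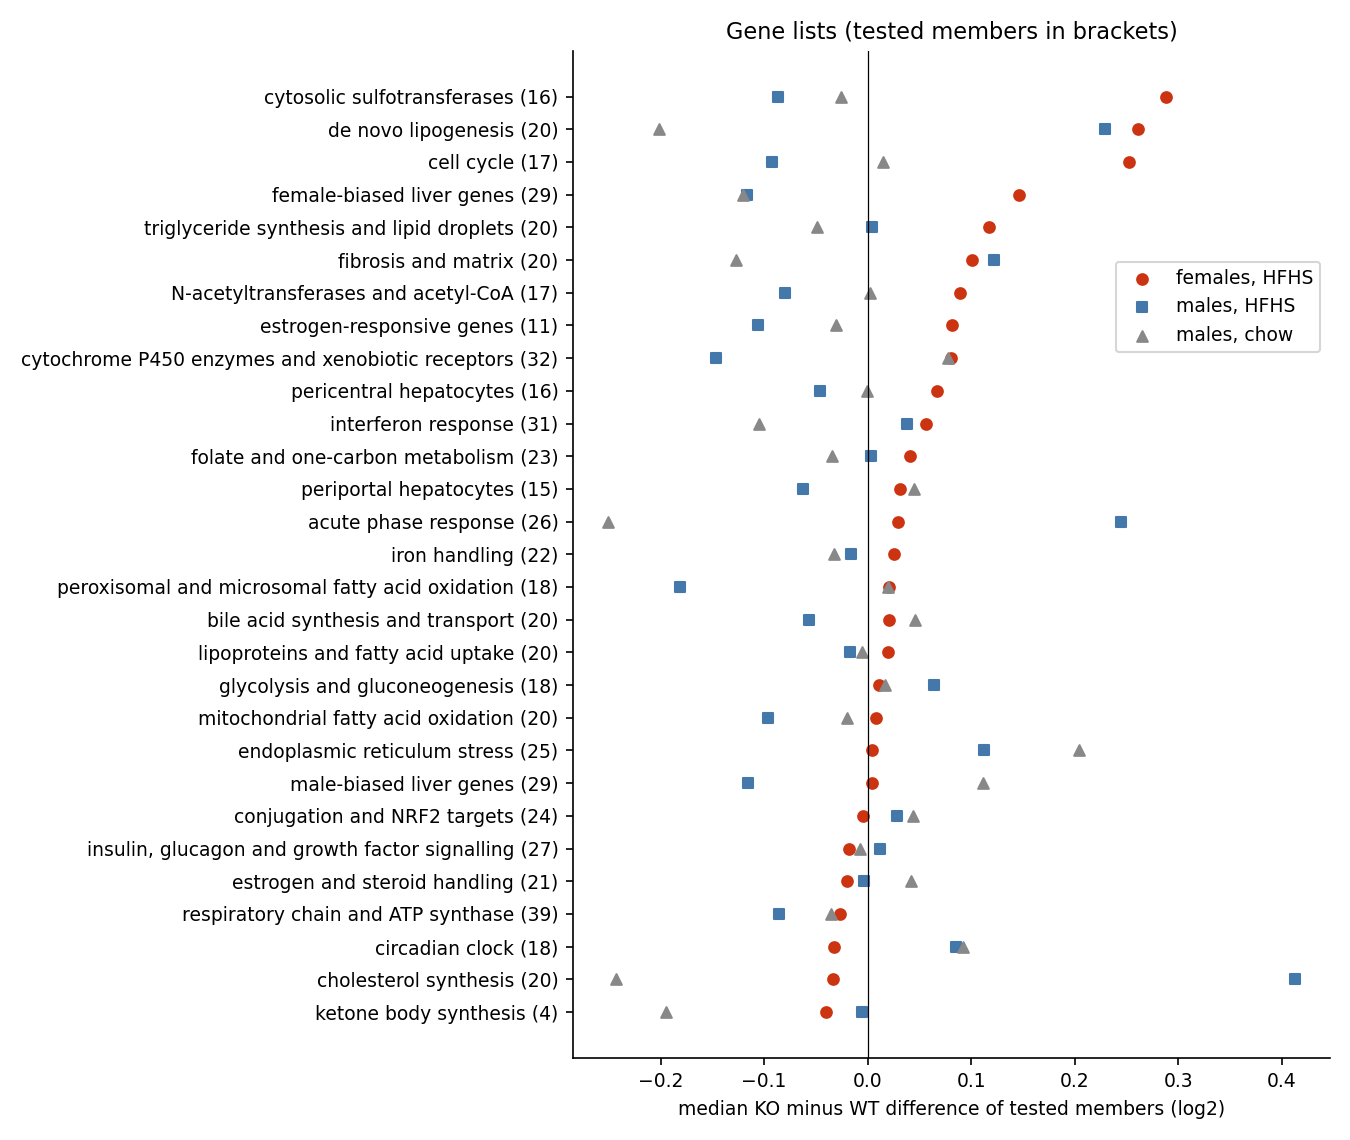
Median KO minus WT log2 difference of the tested members of each of the 29 gene lists in females on HFHS (red circles), males on HFHS (blue squares) and males on chow (grey triangles), ordered by the female value, with the number of tested members in brackets. The female medians lie between −0.04 and 0.29, and cholesterol synthesis in males on HFHS, at 0.41, is farther from 0 than any female median.

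Among genes of acetylation and drug handling, only Nat2 was called. Of 17 tested N-acetyltransferase and acetyl-CoA genes 9 were positive, with a median of 0.09, which was 0.03 with array weights, 0.02 with the filter on the female arrays and −0.03 with no filter. Nat8f3 (0.65) was higher and Sat2 (−0.29), a spermidine/spermine acetyltransferase family member, lower at an unadjusted p below 0.05. Cytochrome P450 enzymes and xenobiotic receptors had a median of 0.08 with 22 of 32 positive. Cyp3a16 was at 6.23, 7.98 and 8.09 in WT and 7.39, 9.75 and 8.66 in KO (1.17, limma adjusted p = 0.999), and Cyp2c54 at 8.36, 7.33 and 7.81 in WT and 6.47, 6.34 and 6.30 in KO (−1.46, limma adjusted p = 0.999). The Cyp3a16 groups overlapped, and every KO value of Cyp2c54 was below every WT value. Conjugation and NRF2 target genes (median −0.0042, 24 tested), folate and one-carbon genes (0.04, 23 tested) and bile acid genes (0.02, 20 tested) contained no called gene.

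Sult1e1 was the only called gene among those that handle or respond to steroid hormones. Of the 21 tested genes of estrogen and steroid handling, which include Sult1e1, no other was called. The list's median was −0.02 (0.06 with no filter), with Ugt2b1 at 0.29, Srd5a3 at −0.30 and Hsd17b11 at −0.30. The 11 tested estrogen-responsive genes had a median of 0.08 with 6 positive, and −0.04 without KO 2; Igfbp1 (0.75) had the smallest p. Female-biased liver genes had a median of 0.15 with 19 of 29 positive, but the list held members far apart in both directions, with Sult1e1, Sult2a1 (1.53) and Cyp3a16 higher and A1bg and Sult3a1 lower. Its median was 0.23 without WT 3. Male-biased liver genes had a median of 0.0046 with 15 of 29 positive, and −0.13 without WT 2; Elovl3 (0.63) and Nox4 (−0.50) differed in sign.

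Immune, stress and growth lists held no called gene apart from Bst2. Bst2 was the only interferon response gene called, while 22 of the 31 tested members were positive, with a median of 0.06, and none was higher at an unadjusted p below 0.05. Every KO female was above every WT female for 3 members, Isg20 (0.35) and Oasl2 (0.54) among them, against 4.34% of all genes. The median was 0.17 without WT 2. Of 17 cell cycle genes 13 were positive (median 0.25, 0.15 to 0.24 with 1 female left out). The proliferation marker Mki67 was at 5.30, 5.15 and 5.62 in WT and 5.90, 5.77 and 6.43 in KO, and Ccnb2 was at 0.67 but Tyms at −0.35. The groups of Mki67 did not overlap, and none of these genes was called. In the endoplasmic reticulum stress list (median 0.0047, 25 tested) the transcription factor Atf4 was at 7.42, 7.44 and 7.52 in WT and 7.26, 6.98 and 6.98 in KO (−0.39, limma adjusted p = 0.999), while Chac1, one of its targets, was at 0.65. Medians were 0.03 for acute phase genes (26 tested), 0.10 for fibrosis and matrix genes (20 tested), −0.03 for clock genes (18 tested) and 0.03 for iron handling genes (22 tested). Pericentral and periportal hepatocyte genes were at 0.07 and 0.03; Rhbg, an ammonium transporter of pericentral hepatocytes, was at 0.49, and Cdh1, the E-cadherin gene, which also lies on chromosome 8, was at −0.96.

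Markers of other liver cells had similar levels in the 2 genotypes, with the exceptions given here. The mean level of 15 Kupffer cell and macrophage markers was 6.94 to 7.15 in WT and 7.01 to 7.23 in KO, that of 12 endothelial markers 7.67 to 7.86 and 7.82 to 7.87, and that of 10 stellate cell markers 7.31 to 7.45 and 7.26 to 7.54. Lymphocyte markers were at 4.70 to 5.03 in WT and at 4.67, 4.72 and 5.36 in KO, the last being KO 3. The 4 erythroid markers were at 3.97 to 4.29 in WT and 4.53 to 4.73 in KO, with 2 of them under the table median in all 6 females. In whole liver, fewer cells of a type and less RNA per cell cannot be told apart, and the part of cell composition in the differences above was not tested.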

How the data were processed

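The values analysed were the deposited log2 expression values, made by the authors from total RNA by RMA (robust multi-array averaging) in affy 1.48.0 with R 3.4.3, per the submitters' processing notes. They were not transformed again. The sources used here name no genome build of the authors; RefSeq GRCm38.p6 supplied chromosome names, gene order and promoters.

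Of 25428 probe sets, 24705 carried 1 gene symbol, 0 several and 723 none; 1 symbol was found on more than 1 probe set, of which the brightest was kept. Genes above the median of all values (4.57) in at least 3 of 22 arrays were tested. A mean for each of 6 groups was fitted by limma (lmFit, eBayes) to 20 arrays, 1 per animal, with 14 residual degrees of freedom, so the females share an estimate of spread with the males. The number of arrays limits the precision. All p-values are two-sided, with Benjamini-Hochberg adjustment over all tested genes. Only the female comparison of the main fit was tested on simulated data.

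Named genes were the Nat genes, every called gene, up to 10 uncalled genes in each direction with the largest separate differences at an unadjusted p below 0.01, the 5 smallest interaction p-values, up to 4 members of each list and 10 neighbours of Nat2 on each side. Other chromosome 8 genes and some list members were named after their values had been seen. The comparison, the genes and the 29 lists were chosen with earlier results of these data known.

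Alternatives were no filter, a filter of 10 arrays or on the female arrays, all probe sets, median centring, repeated quantile normalisation, weighted arrays, trended robust moderation, a fold threshold of 1.2 (treat), the replicate block, a fit restricted to the females (to the HFHS animals for the interaction), all 22 arrays with batch and animal, and each animal left out. R 4.3.3, limma 3.58.1, data.table (version 1.17.8), Python 3.11.15 and matplotlib 3.10.9 were used.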

Additional observations from a re-analysis of the deposited data

Results flagged for a closer look

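The olfactory receptor gene Olfr978 was higher in every KO than in any WT female on HFHS and lower in every KO than in any WT male on HFHS, with a female minus male difference of 0.90 (0.44 in females, −0.45 in males) that did not pass in limma (adjusted p = 0.933). The T cell receptor segment Trav12-2 lay the other way in the sexes, with an interaction of −1.11 (−0.28 in females, 0.84 in males on HFHS, limma adjusted p = 0.933), and was under the table median in all 6 females.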

How the results depend on the processing

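Between KO and WT females, 7 genes were called, and the count was 6 to 9 under the alternatives except a fold threshold of 1.2 (treat), which left 3. Leaving out each female in turn gave 4 to 11 calls, with 4 without KO 2, KO 3, WT 1 or WT 2 and 11 without WT 3. Nat2 and Bst2 passed under every alternative and Sult1e1 under each in which it was tested, and all 3 passed with any 1 female left out. Zfp868, Mvb12a and C730027H18Rik were lost with the replicate block, with only the female arrays and with treat. The interaction with males on HFHS gave 0 calls, and 0 to 2 with 1 animal left out (2 without male KO 1 or male KO 2, 1 without male WT 1). Outside chromosome 8, leaving out each female gave 79 to 241 genes at p below 0.01, 15 to 56 of them with the same sign in both groups of males. No result changed sign while called. Of the medians of gene and marker lists, 11 values under other settings and 17 with 1 female left out moved by more than the spread between replicates, and 358 and 229 did not.

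The replicate numbers did not pair the samples. Correlations of deviations between the WT and the KO female of the same number were −0.09, −0.10 and 0.01. Of the 6 female samples, 0 correlated best with the sample of its own number. With the replicate block 7 genes were called in females, 3 of them higher in KO, and 0 in the interaction. Signals under the table median limit the folds of Nat2, Sult1e1, C730027H18Rik and Pgam1.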
